A study of Mus musculus with 8 samples.

Results

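The genes described here are 9 genes that define macrophages or set their fate: the surface and endosomal proteins Csf1r, Adgre1, Mertk, Cd68 and Itgam, and the transcription factors Spi1, Cebpa, Cebpb and Maf. They were chosen by symbol, are 9 of the 21080 genes measured, and all 9 passed the filter on low values (16272 genes did). RNA-seq was performed on BMDMs of WT and Nudt21-cKO mice. BMDMs are macrophages that differentiate in a dish from bone marrow progenitors. Nudt21 encodes a subunit of the complex that selects where pre-mRNAs are cleaved and polyadenylated. In Nudt21-cKO mice the floxed gene (Nudt21 fl/fl) is removed by Cre under LysM control, which acts in macrophages and also in other myeloid cells such as neutrophils. The WT mice were littermates that carried LysM-Cre as well, so Cre was shared by all 4 groups. The groups were WT at 0 h, cKO at 0 h, WT at 4 h and cKO at 4 h. The 4 h cells received IFNγ overnight and then LPS for 4 h. The labels give the stimulation for every sample, and the 0 h samples were taken as unstimulated from their titles and the study's methods. Each group had 2 samples (replicates 1 and 2 for WT, 3 and 4 for cKO), and a sample was itself a pool of BMDMs from 2 mice, so n = 2 samples in every group. The p-values measure the spread between these pools only. The ages of the mice are not given in the sources used here.

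Macrophages depend on signalling through CSF1R, the receptor for the growth factors CSF1 and IL-34. The ETS-family factor PU.1, encoded by Spi1, opens macrophage enhancers and works there together with C/EBP factors, of which C/EBPα is needed for the myeloid lineage and C/EBPβ is linked to inflammatory gene expression. MAF restrains self-renewal in mature macrophages. ADGRE1 carries the F4/80 epitope, MERTK is a receptor for the uptake of dying cells, CD68 is a glycoprotein of late endosomes and lysosomes, and ITGAM is the CD11b chain of the complement receptor CR3.

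The values are the average number of reads over a base of the gene. The deposited coverage, summed over genes, ranged from 15751245 to 15827594 in WT and from 16650103 to 17744522 in cKO at 0 h. At 4 h it ranged from 14950347 to 15552049 in WT and from 17360205 to 17954882 in cKO. It was thus higher in every cKO sample than in every WT sample of the same time. For this reason coverage was scaled to an equal sum in each sample before comparison, and the scaled coverage is the level given below. The labels were checked on the targeted gene. Nudt21 coverage at 0 h was 751 and 667 in WT against 157 and 160 in cKO, and at 4 h it was 579 and 634 in WT against 135 and 106 in cKO. Its log2 fold change was -2.16 at 0 h (adjusted p = 0.00524) and -2.34 at 4 h (adjusted p = 0.00364, limma). Markers of other cell types were read in the same samples. The summed coverage of 10 neutrophil genes was 25763 to 28251 in WT and 28675 to 35452 in cKO at 0 h, and 19110 to 24569 in WT and 21602 to 23717 in cKO at 4 h, led by S100a9. Among the markers of T and B cells, Cd3e, Ms4a1 and Pax5 were under 1 in every group, whereas others were not. Cd4 led the T and NK list at 0 h, with a mean of 193.1 in WT and 137.3 in cKO. At 4 h Lck led it, with 33.46 in WT and 65.34 in cKO. Cd79b led the B-cell list, with 138.1 in WT and 64.95 in cKO at 0 h, and 11.09 and 4.222 at 4 h. The summed coverage was at most 217 for T and NK cells and 149.9 for B cells. It was at most 12.95 for erythroid cells, 37.52 for mast cells, 74.08 for dendritic cells and 188.8 for fibroblasts. In bulk RNA, fewer cells of a type and less RNA per cell cannot be told apart.

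**Figure D1:**
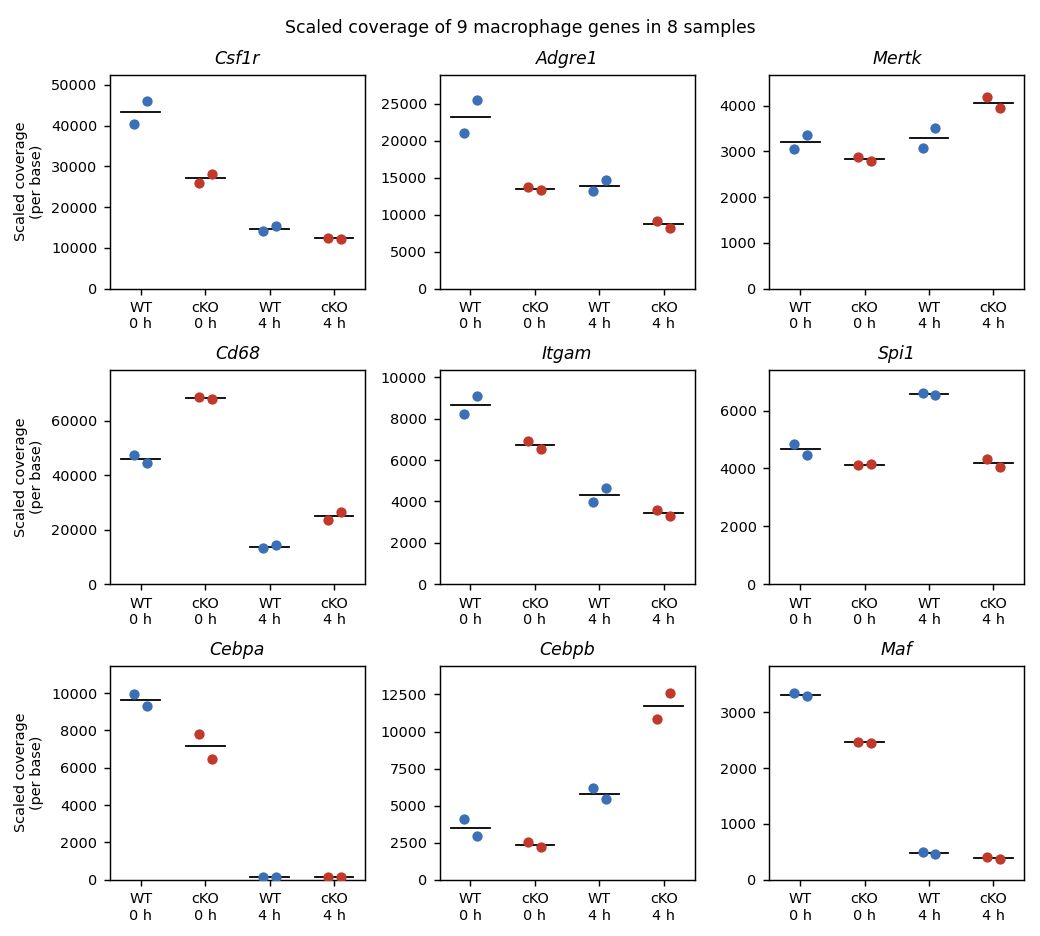
Scaled coverage (per base, linear axes from 0) of each of the 9 genes in the 8 samples. Points are samples, WT in blue and cKO in red, and bars are group means. Cd68 stands higher in cKO at both times, Adgre1 lower, and Cebpa falls close to 0 in all 4 samples at 4 h.

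Because Spi1 and the C/EBP and MAF factors are themselves among the 9 genes, the promoters of the 9 genes were searched for the letters that these factors recognise. Promoters from 250 bases before to 50 bases after the gene start were listed by RefSeq (GRCm38.p6) for 5 of the 9 genes, Mertk, Cd68, Itgam, Cebpa and Cebpb. Both strands were searched for the PU.1 core GAGGAA, which 28.3% of 32851 promoters of this length hold, for the C/EBP letters TTGCNNAA (10.8%) and for the MAF letters TGCTGAC (4.7%). Matches were found in Cd68 and Itgam. Distances are from the RefSeq gene start, at 69666170 for Cd68 and 128062640 for Itgam. The letters of the match are in capitals, the gene's own strand is shown 5′ to 3′, and TTCCTC is GAGGAA on the other strand.
Cd68, PU.1 core starting 225 bases before the gene start, chr11:69666379-69666406, minus strand: ttcttaccaatGAGGAAagggcttccca
Cd68, C/EBP letters 43 bases before the gene start, chr11:69666197-69666224, minus strand: gcttgagtgggTTGCTAAAgctgaggtg
Cd68, PU.1 core at base 30, chr11:69666125-69666152, minus strand: aggcttttcatTTCCTCttccaagagaa
Itgam, PU.1 core 84 bases before the gene start, chr7:128062545-128062572, plus strand: gttttctcccgGAGGAAggctacagagg
Itgam, PU.1 core 15 bases before the gene start, chr7:128062614-128062641, plus strand: ctcatagctttTTCCTCatacttctctg
Itgam, PU.1 core at base 33, chr7:128062661-128062688, plus strand: gccttggtggcTTCCTCaaagtgtctgt
The window of Cd68 held matches to 2 of the 3 sets of letters and that of Itgam held 3 PU.1 cores. Mertk, Cebpa and Cebpb held none of these letters in the window. A match is a description of the sequence and not a bound site.

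The protein encoded by Nudt21 binds UGUA in RNA, so the 3′UTRs of the 9 genes were also read, from the GENCODE M21 transcripts (GRCm38). The UTRs ranged from 158 bases in Cd68 to 4316 bases in Maf, and every one of the 9 held UGUA, written TGTA in the transcript file, from 1 copy in Adgre1, Cd68 and Spi1 to 15 copies in Maf. Over 13493 tested genes with a 3′UTR the median was 1088 bases and 5 copies, and 11.9% held none. The sites of the 4 genes that differed between the genotypes at 4 h (below) were as follows, with the motif in capitals, the transcript's strand, and the position counted from the first base of the 3′UTR.
Adgre1, base 47, chr17:57483155-57483182, plus strand: atgtctgaagatTGTAagtgctttaagg
Cd68, base 21, chr11:69664335-69664362, minus strand: cccagtccactgTGTAagccaccaagga
Spi1, base 274, chr2:91115656-91115683, plus strand: ctggcaccttttTGTAtattgaatgctt
Cebpb, base 258, chr2:167690158-167690185, plus strand: acgcaacacacgTGTAactgtcagccgg
Cebpb, base 381, chr2:167690281-167690308, plus strand: tattatttttttTGTAttatataaaaaa
Cebpb, base 425, chr2:167690325-167690352, plus strand: aaaagaggcgtaTGTAtattttgagaac
These 4 genes had UTRs of 407, 158, 362 and 506 bases, each shorter than the median tested gene. Which of the sites are used was not analysed here.

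In WT BMDMs at 0 h all 9 genes were among the most covered genes, at or above the 95.4th percentile of the genes tested. Cd68 stood first with a scaled coverage of 46126 ± 2074 (SD, n = 2), followed by Csf1r at 43270 ± 3956 (SD, n = 2), and the samples of these genes overlapped. Adgre1 followed at 23255, Cebpa at 9624, Itgam at 8672 and Spi1 at 4665, each step with no overlap between samples. Cebpb at 3516, Maf at 3318 and Mertk at 3203 closed the order and overlapped each other. In cKO at 0 h the first 6 places were held by the same genes in the same order, and the samples of Cebpa and Itgam overlapped there. At 4 h the order changed. In WT at 4 h Csf1r (14707), Adgre1 (13895) and Cd68 (13765) overlapped at the top, Spi1 came next at 6577 and Cebpa last at 139. In cKO at 4 h Cd68 was first at 25000 and Cebpb, at 11723, overlapped with Csf1r at 12301 for the next place. Cebpa was last again, at 156, the 61.0th percentile of the genes tested.

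To see how loss of Nudt21 bore on macrophage identity in resting cells, cKO and WT were compared at 0 h. Csf1r and Adgre1 were lower in cKO. Cd68 was higher in level but did not reach the fold threshold, and no transcription factor among the 9 genes was called. A gene was called when its fold change exceeded 1.5 with an unadjusted p under 0.05 in limma, the study's rule, and by this rule 2 of the 9 genes were called, both lower, where 12.3% of all tested genes were called, 5.88% higher and 6.43% lower. Over the 9 genes the median log2 fold change was -0.43, against -0.01 over all tested genes, and 8 of the 9 were negative. With the same fold and a Benjamini-Hochberg adjusted p under 0.05, 1 of the 9 genes was called, where 4.32% of all tested genes were. An exact permutation test on 2 samples against 2 cannot give a p under 0.333.

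Csf1r (chromosome 18, 61100598 to 61132149 of GRCm38, plus strand), the CSF1 receptor, had a scaled coverage of 40472 and 46067 in WT and of 25977 and 28121 in cKO at 0 h. Both cKO samples lay below both WT samples. The log2 fold change was -0.68 (SE 0.12, adjusted p = 0.0474), or 1.60-fold lower. On the deposited scale it was -0.55 and without WT 0 h replicate 2 it was -0.58, both short of the 1.5-fold threshold. Its exons share 873 bases with Hmgxb3 on the opposite strand, whose scaled coverage was at most 344 in any sample.

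Adgre1 (chromosome 17, 57358691 to 57483527, plus strand), the F4/80 gene, had 21054 and 25457 in WT and 13674 and 13271 in cKO. The groups were again separate, and the log2 fold change was -0.78 (SE 0.14, adjusted p = 0.0502), or 1.72-fold lower. Itgam (chromosome 7, 128062640 to 128118491, plus strand), encoding CD11b, had 8220 and 9124 in WT and 6948 and 6536 in cKO, a log2 difference of -0.36 that was not called (adjusted p = 0.211). Its exons share 3450 bases with the gene model Gm49368 on the same strand. Mertk (chromosome 2, 128698956 to 128802894, plus strand) had 3050 and 3356 in WT and 2885 and 2797 in cKO and was not called either, at -0.17 (adjusted p = 0.487). Its groups overlapped on the deposited scale.

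Cd68 (chromosome 11, 69664213 to 69666153, minus strand) was the only member with a positive difference at 0 h. Its scaled coverage was 47592 and 44660 in WT and 68679 and 68142 in cKO, with no overlap. The log2 fold change was 0.57 (SE 0.11, adjusted p = 0.063), or 1.48-fold, just under the threshold. It passed the threshold on the deposited scale (0.69), after median-centring (0.60), after quantile normalization (0.68) and without WT 0 h replicate 1 (0.62). Of the osteoclast markers Ctsk, Acp5 and Calcr, Ctsk moved in the same direction. The summed coverage of the 3 genes was 939 to 1197 in WT and 1888 to 2178 in cKO at 0 h, with Calcr, the calcitonin receptor, at 0 in both groups. Ctsk was called, at 1.61 on the log2 scale (adjusted p = 0.0203), whereas Acp5 had 522 and 665 in WT against 636 and 557 in cKO and was not, at 0.014 (adjusted p = 0.995). The part of these markers in the Cd68 difference was not tested.

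Among the transcription factors at 0 h, Maf (chromosome 8, 115682942 to 115707794, minus strand) had 3341 and 3295 in WT and 2475 and 2444 in cKO. The samples of a group differed little, the log2 difference was -0.43 (SE 0.09, adjusted p = 0.0792) and the fold stayed under 1.5. Cebpa (chromosome 7, 35119293 to 35121928, plus strand) had 9944 and 9304 in WT and 7795 and 6491 in cKO, a difference of -0.44 (adjusted p = 0.178). Cebpb (chromosome 2, 167688915 to 167690418, plus strand, a gene with a single exon) had 4065 and 2966 in WT and 2510 and 2238 in cKO, a log2 difference of -0.55 (SE 0.20, adjusted p = 0.207), and its WT samples were the farthest apart of any factor at 0 h. It was called lower after quantile normalization (-0.64) and without WT 0 h replicate 2 (-0.78). Spi1 (chromosome 2, 91082390 to 91115756, plus strand), encoding PU.1, had 4864 and 4466 in WT and 4117 and 4146 in cKO, a difference of -0.17 (adjusted p = 0.399). On the deposited scale its groups overlapped. Exons of Maf share 440 bases with the antisense gene Gm15655, and those of Cebpa share 51 bases with Gm45091, which had a coverage of at most 5.401.

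**Figure D2:**
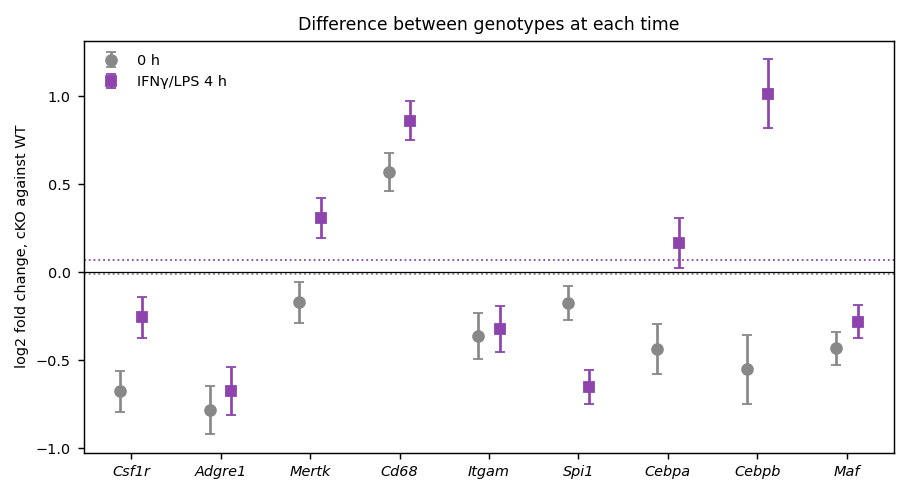
Log2 fold change of cKO against WT for each gene at 0 h (grey circles) and after IFNγ/LPS (purple squares), with the standard error from limma and dotted lines at the median of all tested genes at each time. Cebpb lies at -0.55 at 0 h and 1.01 at 4 h, Cd68 is positive and Adgre1 negative at both times, and Spi1 moves from -0.17 to -0.65.

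After IFNγ/LPS the genotypes differed in 4 of the 9 genes. Cd68 and Cebpb were higher in cKO, by 1.82-fold and 2.02-fold, and Adgre1 and Spi1 were lower, by 1.60-fold and 1.57-fold. Of all tested genes 20.5% were called, 13.1% higher and 7.31% lower. All 4 genes had an adjusted p under 0.05 as well, where 12.2% of all tested genes passed that rule. The median log2 difference of the 9 genes was -0.26, against 0.07 over all tested genes, and on the deposited scale these medians were -0.045 and 0.28.

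The larger of the positive differences was in Cebpb, which had 6196 and 5416 in WT and 10829 and 12617 in cKO. Every cKO sample was above every WT sample, whereas at 0 h both had been below, and the log2 fold change was 1.01 (SE 0.20, adjusted p = 0.0339). The exon of Cebpb shares 312 bases with Tmem189 on the opposite strand, and whether the authors' counting used strand is not stated. Tmem189 coverage at 4 h was 815 and 902 in WT against 1020 and 957 in cKO, lower than Cebpb in all 4 samples. At 0 h it was 3177 and 3159 in WT against 3950 and 3871 in cKO, higher than Cebpb in 3 of the 4 samples. The part of this overlap in the Cebpb values, the rise with stimulation and the interaction included, was not tested. Cd68 had 13095 and 14436 in WT and 23559 and 26440 in cKO, and its log2 fold change was 0.86 (SE 0.11, adjusted p = 0.0143). Of the osteoclast markers, Ctsk (3.40, adjusted p = 0.0023) and Acp5 (1.11, adjusted p = 0.0193) were higher in cKO at 4 h, with a summed coverage of the list of 575 to 625 in WT and of 1348 to 1559 in cKO. Cd68 and Cebpb were called higher at 4 h under every scaling tried and without any of the 8 samples in turn.

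Spi1 had 6603 and 6552 in WT and 4320 and 4048 in cKO. The groups were far apart relative to the spread within them, and the log2 fold change was -0.65 (SE 0.10, adjusted p = 0.0185). Adgre1 had 13135 and 14655 in WT and 9150 and 8242 in cKO, with a log2 fold change of -0.68 (SE 0.14, adjusted p = 0.0381). On the deposited scale both remained below WT in every sample, but their differences of -0.44 and -0.46 were under the fold threshold.

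The other 5 genes were not called at 4 h. Csf1r, 1.60-fold lower in cKO at 0 h, had 14021 and 15392 in WT and 12388 and 12214 in cKO, a log2 difference of -0.26 (adjusted p = 0.209). Mertk had 3068 and 3512 in WT and 4187 and 3944 in cKO, a log2 difference of 0.31 (adjusted p = 0.146), the reverse of its sign at 0 h. Itgam had 3959 and 4674 in WT and 3594 and 3293 in cKO, a log2 difference of -0.32 (adjusted p = 0.17). Csf1r and Itgam overlapped between the genotypes on the deposited scale, and so did Maf. Maf had 491 and 460 in WT and 406 and 377 in cKO, a log2 difference of -0.28 (adjusted p = 0.115), and Cebpa had 148 and 129 in WT and 148 and 163 in cKO, a log2 difference of 0.17 (adjusted p = 0.481). These Cebpa levels were near each other across genotypes and far from those at 0 h.

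Ratios between genes of the same sample are the same under any scaling by 1 factor per sample (equal sums, the deposited scale), though not under quantile normalization. The ratio of Cd68 to Csf1r coverage at 0 h was 1.18 and 0.969 in WT against 2.64 and 2.42 in cKO. At 4 h it was 0.934 and 0.938 in WT against 1.90 and 2.17 in cKO. Each cKO sample therefore held more Cd68 relative to Csf1r than any WT sample at either time. The ratio of Cd68 to Adgre1 at 0 h was 2.26 and 1.75 in WT against 5.02 and 5.14 in cKO, and at 4 h 0.997 and 0.985 in WT against 2.58 and 3.21 in cKO, with the same order of the groups. The ratio of Cebpb to Cebpa at 0 h was 0.409 and 0.319 in WT against 0.322 and 0.345 in cKO, where the genotypes overlapped. At 4 h it was 41.9 and 41.8 in WT and 73.1 and 77.3 in cKO, and the genotypes were separate. A ratio shows that the genes changed unequally and not which of them changed.

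**Figure D3:**
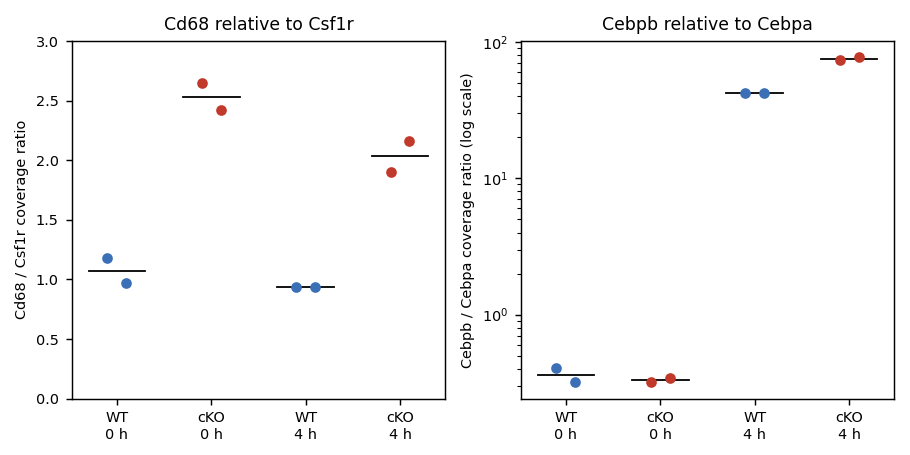
Ratio of Cd68 to Csf1r scaled coverage (left, linear axis from 0) and of Cebpb to Cebpa (right, log axis) in each sample, with group means as bars. The cKO samples stand above WT on the left at both times, from 1.90 to 2.64 against 0.934 to 1.18, and on the right at 4 h only.

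Stimulation was then compared with rest within each genotype. Cebpa fell in both genotypes to a small fraction of its resting level, Maf fell, and Cebpb rose in both. By the same rule 1 gene was called higher and 6 lower in WT, and 1 higher and 6 lower in cKO, where 67.1% of all tested genes were called in WT (12.4% higher, 54.7% lower) and 65.9% in cKO (13.2% higher, 52.7% lower). With the adjusted p the 9 genes gave 7 calls in each genotype, where 65.3% of all tested genes passed in WT and 64% in cKO. These counts of the 9 genes are close to the background. The median log2 fold change of all tested genes was -1.19 in WT and -1.06 in cKO. After median-centring these medians were 0.22 and 0.18, and 60.8% of calls were higher in WT in place of 18.4%, and 59.4% in cKO in place of 20%. The direction of genes near the median therefore depends on the scaling.

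Cebpa, encoding C/EBPα, fell from 9944 and 9304 to 148 and 129 in WT, and from 7795 and 6491 to 148 and 163 in cKO. The 0 h and 4 h samples were separated by far more than the spread in either group. The log2 fold change was -6.12 in WT (SE 0.14, adjusted p = 1.345e-05), or 69.5-fold, and -5.52 in cKO, or 45.7-fold. Maf fell from 3341 and 3295 to 491 and 460 in WT, a log2 fold change of -2.80 (SE 0.09) or 6.98-fold, and from 2475 and 2444 to 406 and 377 in cKO, at -2.65 or 6.28-fold. Both genes fell under all 4 scalings, and their smallest log2 fold changes, after median-centring, were -4.27 for Cebpa in cKO and -1.39 for Maf in WT.

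Cebpb rose from 4065 and 2966 to 6196 and 5416 in WT, a log2 fold change of 0.74 (SE 0.20, adjusted p = 0.02), or 1.67-fold. In cKO it rose from 2510 and 2238 to 10829 and 12617, a log2 fold change of 2.30 (SE 0.20, adjusted p = 0.000373), or 4.93-fold. The WT rise was not called after quantile normalization (0.47), without WT 0 h replicate 2 (0.51) or without WT 4 h replicate 1 (0.64), whereas the cKO rise was called in every alternative. Spi1 went from 4864 and 4466 to 6603 and 6552 in WT, at 0.50 (adjusted p = 0.00627, 1.41-fold), and from 4117 and 4146 to 4320 and 4048 in cKO, at 0.02 (adjusted p = 0.885). Its samples at 0 h and 4 h overlapped in cKO and not in WT, and neither comparison was called. After median-centring both were called higher, at 1.91 in WT and 1.26 in cKO.

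Of the surface and endosomal genes, Cd68 and Csf1r fell most. Cd68 had a log2 fold change of -1.75 in WT and -1.45 in cKO, and Csf1r of -1.56 in WT and -1.14 in cKO, all 4 with an adjusted p under 0.05. Itgam changed by -1.01 and -0.97, and Adgre1 by -0.74 and -0.63, again with calls in both genotypes. After median-centring none of these falls was called. Csf1r was then at -0.14 in WT and 0.11 in cKO, Cd68 at -0.33 and -0.21, and Itgam (0.41 and 0.27) and Adgre1 (0.68 and 0.61) had the opposite sign, with Adgre1 called higher in both genotypes. Mertk was not called in either genotype at equal sums, and was called higher in both after median-centring (1.45 in WT, 1.76 in cKO). At equal sums it was at 0.04 in WT (adjusted p = 0.793), where its samples at 0 h and 4 h overlapped, and at 0.52 in cKO (adjusted p = 0.0112), where they did not.

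**Figure D4:**
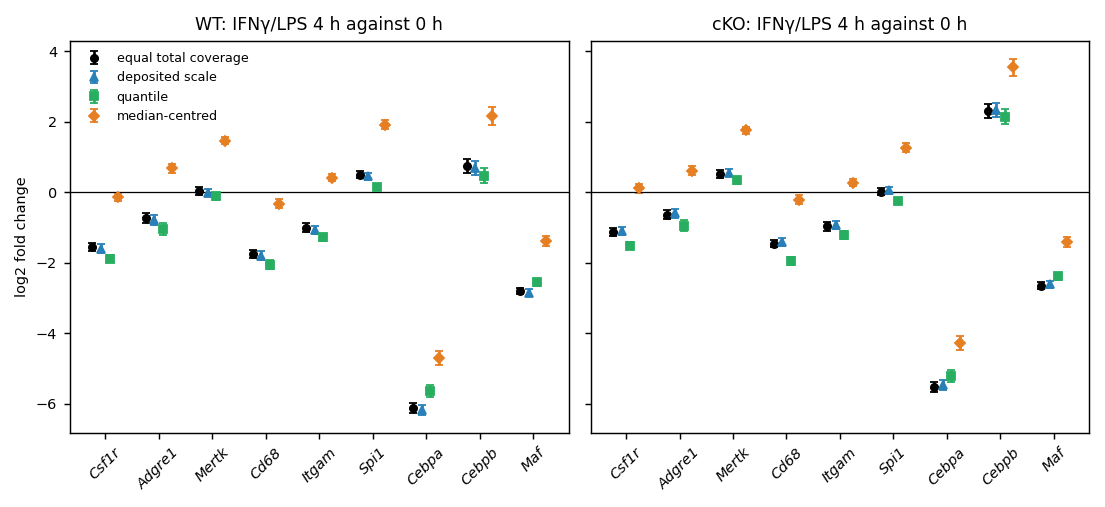
Log2 fold change of IFNγ/LPS at 4 h against 0 h in WT (left) and cKO (right) for each gene, with the standard error from limma, under 4 scalings shown by colour and shape. Cebpa and Maf are negative and Cebpb is positive under all 4, while Csf1r, Adgre1 and Itgam lie near or above 0 after median-centring only.

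An interaction term, the genotype difference at 4 h minus that at 0 h, tested whether stimulation altered the genotype difference. For Cebpb the term was 1.56 (SE 0.28, adjusted p = 0.0644) and for Cebpa 0.60 (SE 0.20, adjusted p = 0.191). These 2 of the 9 genes passed the fold of 1.5 with an unadjusted p under 0.05, where 16% of all tested genes did, 11% in the positive and 4.93% in the negative direction. Cebpa lost this call without any of 5 of the 8 samples in turn. Spi1 had -0.48 (adjusted p = 0.144), Mertk 0.48 (adjusted p = 0.198) and Csf1r 0.42 (adjusted p = 0.246), all under the fold threshold. After median-centring Spi1 passed the rule, at -0.66. Cd68, Adgre1, Itgam and Maf ranged from 0.04 to 0.29 (adjusted p of at least 0.377), and after median-centring Adgre1, Itgam and Maf were slightly negative. In limma 0 of the 9 genes had an adjusted p under 0.05, where 2.51% of all tested genes passed, and 5 had an unadjusted p under 0.05. Thus the difference between 0 h and 4 h in the genotype effect on Csf1r, called at 0 h only, and on Spi1 and Cd68, called at 4 h only, was not significant after adjustment.

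The relatives and partners of the 9 genes were read from 10 lists with 94 genes, of which 91 were tested. At 0 h 4 of them were called higher and 15 lower in cKO, where 5.88% and 6.43% of all tested genes were, and 5 to 7 higher and 11 to 18 lower under the other scalings. At 4 h 19 were higher and 14 lower, where 13.1% and 7.31% of all tested genes were, and 13 to 23 higher and 9 to 16 lower under the other scalings, with more lower than higher after median-centring and quantile normalization. In the CSF system (10 genes) none was called at 0 h, including Csf1, whose coverage was 42.9 and 74.8 in WT against 75.5 and 100.2 in cKO. After quantile normalization Csf3r was called lower at 0 h. At 4 h 2 genes of the list were higher and 2 lower in cKO, with 2 higher and none lower on the deposited scale. Csf2, encoding the ligand GM-CSF, was listed at 0 in all 4 samples at 0 h and at 4 h had 23.9 and 21.6 in WT against 157.7 and 193.5 in cKO. Its log2 fold change of 2.94 (adjusted p = 0.00121) was the largest of the list, and it was called under all 4 scalings. Csf2ra, the α chain of the GM-CSF receptor, was also higher in cKO at 4 h, with 9068 and 9528 against 5596 and 5147 in WT (log2 fold change 0.79, adjusted p = 0.0259). The shared β chain Csf2rb and its close paralog Csf2rb2, between which reads may be split uncertainly, were lower, both at -0.65 (adjusted p = 0.0767 and 0.054). Stimulation raised Csf1 in both genotypes, by a log2 fold change of 4.18 in WT and 3.54 in cKO.

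Among the relatives of ADGRE1, Adgre4 at 0 h had 229 and 283 in WT against 113 and 133 in cKO, and at 4 h 10.1 and 10.2 in WT against 95.0 and 108 in cKO. It was thus lower in cKO at 0 h (log2 fold change -1.05, adjusted p = 0.0345) and higher at 4 h (3.31, adjusted p = 0.00151), whereas Adgre1 was lower at both. Adgre5 was not called at either time. Of the relatives of MERTK and their ligands, Axl was lower in cKO at 0 h (-0.66, adjusted p = 0.0662). At 4 h the ligand Gas6 was higher (0.62, adjusted p = 0.0545) and the ligand Pros1 lower (-0.86, adjusted p = 0.0349). Of the β2 integrins related to ITGAM, Itgal (-0.69, adjusted p = 0.0502) and Itgad (-1.69, adjusted p = 0.141) were lower at 0 h, and none was called at 4 h.

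Among the C/EBP relatives none of 4 was called at 0 h, and at 4 h Cebpg was higher in cKO at 1.52 (adjusted p = 0.0464). Cebpd, which at 4 h had 147 and 116 in WT against 190 and 179 in cKO, was not called at equal sums (0.50, adjusted p = 0.114). On the deposited scale 3 of the 4 relatives were called higher at 4 h. Of the MAF relatives, the small MAF genes Mafg and Mafk, whose proteins lack an activation domain, were higher in cKO at 4 h at 1.21 (adjusted p = 0.0301) and 1.17 (adjusted p = 0.0195). Among 10 ETS and IRF relatives and partners of PU.1, Ets1 at 0 h had 130.3 and 139.9 in WT against 73.8 and 65.4 in cKO and was called lower under all 4 scalings (-0.96 at equal sums, adjusted p = 0.0367). It was not called at 4 h (-0.22, adjusted p = 0.381), and its interaction term passed the fold and unadjusted p rule at 0.74 (adjusted p = 0.143). Spic was lower (-0.82, adjusted p = 0.0395) and Ets2 higher (0.60, adjusted p = 0.0614) in cKO at 4 h. Irf8, a partner of PU.1, was not called between genotypes at either time and rose by 3.08 with stimulation in both. Of 20 further myeloid factors, 2 were higher (Tfec, Bhlhe41) and 2 lower (Nr1h3, Batf3) in cKO at 0 h, and 6 were higher and 4 lower at 4 h. Over all tested genes 5.88% were higher and 6.43% lower at 0 h, and 13.1% and 7.31% at 4 h. After median-centring and after quantile normalization 4 factors were higher and 4 lower at 4 h. The lower factors at 4 h were Egr2 (-1.41, adjusted p = 0.0362), Id2 (-1.15, adjusted p = 0.0362), Pparg (-1.11, adjusted p = 0.0576) and Batf3 (-1.19, adjusted p = 0.0503). Of the higher factors, Klf4 at 4 h had 215 and 163 in WT against 709 and 865 in cKO (2.06, adjusted p = 0.00752).

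In a list of 30 other macrophage genes, 2 were higher and 7 lower in cKO at 0 h, and 4 were higher and 6 lower at 4 h. The shares over all tested genes were those given for the myeloid factors. On the deposited scale 4 were higher and 6 lower at 0 h, and at 4 h the balance turned, with 5 higher and 3 lower. After median-centring 3 were higher and 8 lower at 4 h. The lower genes at 0 h included the Fc receptor gene Fcgr1 (-1.02, adjusted p = 0.0435). The complement genes C1qa (-0.80, adjusted p = 0.068), C1qb (-0.75, adjusted p = 0.0587) and C1qc (-1.04, adjusted p = 0.0217) were lower too. The others were the chemokine receptor gene Ccr2 (-1.39, adjusted p = 0.114) and the scavenger or lectin receptor genes Marco (-1.72, adjusted p = 0.0738) and Mrc1 (-1.01, adjusted p = 0.238). C1qc at 0 h had 8578 and 7354 in WT against 3835 and 3913 in cKO. The higher genes were Mpeg1, encoding the pore-forming protein perforin-2 (1.21, adjusted p = 0.0321), and Cd84 (0.67, adjusted p = 0.101). Ccr2, Marco, Mrc1 and C1qb were called lower and Cd84 higher at 4 h as well. The list as a whole had a median of -0.18 at 0 h and -0.03 at 4 h. Of the genes named from the lists, Axl, Itgal and Nr1h3 at 0 h and Csf2rb, Csf2rb2, Gas6, Ets2 and C1qb at 4 h lost their call under at least 1 other scaling, as did Mrc1 at 0 h, and none of these calls between genotypes changed sign.

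The genes closest to each of the 9 in pattern were found by the root mean square distance, on the log2 scale, between profiles over the 8 samples. Each gene was first centred on its own mean, and 12027 genes with a mean scaled coverage of at least 10 were compared. With 8 samples in 4 groups many genes lie close to any pattern. Csf1r was closest to Csf3r, the G-CSF receptor gene (distance 0.084), and Adgre1 to Ids (0.083). Mertk was closest to Atp13a1 (0.047), Cd68 to Wipi2 (0.079), Itgam to Btbd9 (0.049) and Spi1 to Tfg (0.07). The patterns of Cebpb and Maf were nearest to Siah2 (0.104) and Ptpn22 (0.106), and that of Cebpa had the most distant neighbour, Tmem86a (0.162). Within the 9 genes the closest pairs were Csf1r with Itgam (0.22), Adgre1 with Itgam (0.249) and Mertk with Spi1 (0.35).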

How the data were processed

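Total RNA from 8 BMDM samples was sequenced as paired-end reads. Per the labels, HISAT2 2.2.1 and StringTie 2.1.7 and the mouse genome GRCm38 (mm10) were used. The authors deposited a coverage signal per RefSeq gene symbol and sample, with 1 table for each time, which had not been scaled between samples. The tables name no unit, and coverage was read from the values. The authors' own columns of fold changes and p-values were not used. Columns of other samples numbered 0.

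The 9 genes, the gene lists and the tests were chosen with earlier results of these data known. Coverage was scaled to an equal sum per sample (to the mean of the 8 sums), and log2(value + 0.1) was analysed over 16272 genes with a mean of at least 0.5. A pseudocount understates fold changes of low genes. One limma fit (limma 3.58.1, R 4.3.3) over 8 samples in 4 groups gave 5 comparisons, and p-values were adjusted over all tested genes by Benjamini-Hochberg. A call needed a fold above 1.5 and p under 0.05. All 9 genes were named, with genes of the lists as examples, picked after their values were seen, and the nearest gene in pattern for each. The design had foreseen counts or FPKM. No count test was run, because the values are coverage. For reads per sample the study's methods give only a lower bound, and coverage does not give the reads of a gene, so no counting interval was computed. The fit was tested on simulated data. Positions and UTRs came from GENCODE M21, promoters from RefSeq (GRCm38.p6). Some genes of the lists are not reported here by name.

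Alternatives were the deposited scale, median-centring, quantile normalization, a pseudocount of 1, no filter or a minimum of 1, the adjusted p as call rule, the samples of 1 time only, a replicate block and each sample left out.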

Additional observations from a re-analysis of the deposited data

Results flagged for a closer look

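Cebpb and Cebpa were the genes among the 9 whose genotype difference changed between 0 h and 4 h by more than 1.5-fold with an unadjusted p under 0.05 in the interaction test. For Cebpb the value was 1.56 on the log2 scale (adjusted p = 0.0644, limma). Its range over the alternatives was 1.34 to 1.79, with an adjusted p from 0.0547 to 0.193, and the cKO samples were below both WT samples at 0 h and above both at 4 h. For Cebpa the value was 0.60 (adjusted p = 0.191), with a range of 0.43 to 0.73 and an adjusted p from 0.138 to 0.457. Its 4 h levels lay between 129 and 163 in all 4 samples. Neither passed adjustment over all tested genes, and 16% of all tested genes met the same rule.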

How the results depend on the processing

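For the 45 gene-level values, 668 of 720 alternatives kept the direction and the side of the threshold, 22 lost the call, 11 gained it and 19 changed sign. The members called in the comparisons fell from 4 to 2 at 4 h on the deposited scale. At 0 h they were 4 after quantile normalization and 1 with an adjusted p under 0.05. In the interaction they were 1 after quantile normalization, 0 with an adjusted p and 1 with the replicate block. With the adjusted p, 703 of all genes were called at 0 h, 1978 at 4 h and 408 in the interaction. Leaving out 1 sample gave 2 to 3 members at 0 h, 4 at 4 h, 6 to 7 for stimulation in each genotype and 1 to 2 in the interaction. Of all calls at 4 h 64.3% were higher in cKO, against 82.4% on the deposited scale and 48.5% after median-centring. At 0 h 47.8% were higher, against 61.8% on the deposited scale, and in the interaction 69.2%, against 46.3% after median-centring. For stimulation, 42.7% in WT and 41.6% in cKO were higher after quantile normalization. Signs changed after median-centring for stimulation in WT (Adgre1 0.68, Itgam 0.41) and in cKO (Csf1r 0.11, Adgre1 0.61, Itgam 0.27) and for the interaction (Adgre1 -0.071, Itgam -0.14, Maf -0.025). Mertk in WT stimulation was -0.013 on the deposited scale and -0.11 after quantile normalization, and Spi1 in cKO stimulation was -0.24 after the latter. When 1 sample was left out, sign changes were limited to values near 0: Mertk in WT ranged from -0.060 to 0.13, Spi1 in cKO from -0.029 to 0.065, and in the interaction Adgre1 from -0.032 to 0.24 and Itgam from -0.080 to 0.16. A group left with 1 sample was assumed to vary like the others. Adgre1 in cKO stimulation lost its call without cKO 4 h replicate 4 (-0.56). The Cebpa interaction lost its call without WT 0 h replicate 1 or 2, cKO 0 h replicate 4, WT 4 h replicate 2 or cKO 4 h replicate 4 (0.47 to 0.65), with the replicate block and after median-centring or quantile normalization (0.43 in both). The cause of these changes was not tested. The replicate numbers recur at both times within a genotype, but deviations of same-numbered samples correlated at 0.019 and 0.024. Whether they come from the same mice is not given in the sources used here, and they were treated as sharing only a number. The block left 7 members called for stimulation in each genotype. No paired analysis was possible between genotypes because they share no number. DESeq2 and edgeR were not run, since the values are not counts.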
